A study of Homo sapiens with 6 samples.

Results

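The nuclear genes for subunits of respiratory chain complexes I, III, IV and V were examined in MDA-MB-231 cells, an established mesenchymal human breast cancer line that lacks hormone receptors. Members were the protein-coding rows of the deposited count table whose symbols begin with NDUFA, NDUFB, NDUFC, NDUFS or NDUFV and end in a number, or begin with UQCR, COX4 to COX8, or ATP5, leaving out NDUFA4. This gave 79 of 31582 rows: 37 for complex I, 9 for complex III, 13 for complex IV and 20 for complex V. Of these, 75 passed a filter on low counts and were tested among 16394 genes, namely 36, 9, 11 and 19 for the 4 complexes in that order. The series has 3 libraries from MDA-MB-231-shCALR cells, which carry an shRNA against CALR (knockdown), and 3 from MDA-MB-231-NTC cells (control). All 6 came from polyA-enriched, strand-specific RNA sequencing of cells grown in DMEM with serum and taken before confluence. Separate cultures, or more than 1 shRNA, are not mentioned in the labels for the libraries of a group, so p-values measure only the spread between these libraries.

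The respiratory chain is a set of protein complexes in the inner mitochondrial membrane. Complex I takes electrons from NADH, complex III passes them from ubiquinol to cytochrome c, complex IV hands them to oxygen, and complex V, the ATP synthase, uses the proton gradient that the others build to make ATP. Most subunits are encoded in the nucleus and imported, a small set is encoded in mitochondrial DNA, and both sets must be assembled together with dedicated assembly factors. Calreticulin, the product of CALR, is a chaperone that folds glycoproteins and buffers calcium in the endoplasmic reticulum, an organelle that exchanges calcium with mitochondria at contact sites.

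Library totals lay between 34639090 and 42425310 counts, and the TMM factors that scale them lay between 0.879, in knockdown library 3, and 1.07. Levels are given as CPM, read counts relative to the scaled library total, or, where genes are compared per length, as the deposited FPKM, which also divide by gene length. CALR itself had 493, 66.4 and 110 CPM in knockdown libraries 1, 2 and 3, against 1213, 979 and 926 CPM in the controls. The knockdown was thus least deep in library 1 and deepest in library 2. On the log2 scale CALR differed by −2.22 ± 0.64 (SE, n = 3 each; adjusted p = 0.209 in edgeR), and by −3.55 without library 1. Libraries of the knockdown group differed more from each other than controls did, with a chi-square per gene of 105 to 199 between knockdown pairs and 11.8 to 48.1 between control pairs. Of the mesenchymal markers, VIM averaged 2809 CPM in knockdown and 1792 CPM in control libraries, CD44 519 and 404 CPM, and AXL 495 and 346 CPM. FN1 had 638, 156 and 299 CPM in knockdown and 346, 278 and 292 CPM in control libraries, so its knockdown values lay on both sides of the controls. Hormone receptor and epithelial markers were low but not all absent: ESR1 averaged 0.456 and 0.495 CPM, CDH1 0.540 and 0.245 CPM, PGR 1.53 and 1.37 CPM, ERBB3 3.68 and 5.52 CPM, and EPCAM 7.87 and 8.17 CPM. The leukocyte gene PTPRC and the muscle genes MYH7 and CKM had no more than 0.257 CPM in any library, while CD68, used as a marker of macrophages, averaged 4.03 CPM in knockdown and 4.27 CPM in control libraries. Among markers of stromal cells, PECAM1 averaged 2.57 CPM in knockdown and 1.12 CPM in control libraries, PDGFRB 0.339 and 0.588 CPM, DCN 0.394 and 1.84 CPM, and VWF 0.0357 and 0.0441 CPM; their part in the results was not tested. In bulk libraries a smaller share of cells of a kind and less of an mRNA per cell cannot be told apart.

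Most of the subunit mRNAs were slightly more abundant in the knockdown group, and none of the differences passed the adjusted threshold. The fitted log2 fold change, knockdown over control, was above 0 for 69 of 75 members (92.0%), against 49.9% of all genes tested, and its median was 0.26 over members and −0.00 over all genes. Fold changes of members ran from −0.87 to 0.70 on the log2 scale. No member, and none of the 16394 genes (0.0%), had an adjusted p under 0.05 in edgeR's quasi-likelihood test with Benjamini-Hochberg adjustment over all genes, and the lowest adjusted p of a member was 0.209. At an unadjusted p under 0.05, 13 of 75 members (17.3%) were higher, against 8.17% of all genes, and 0 members were lower, against 7.36% of all genes. All 3 knockdown libraries lay above all 3 controls for 13 members (17.3%), against 11.3% of all genes, and below them for 2 members (2.67%), against 11.2% of all genes. DESeq2 called 290 genes higher (1.77%) and 240 lower (1.46%), of which 0 were members, and limma-voom called no gene.

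The excess came from knockdown libraries 1 and 3 and was not seen in library 2. With each member set against its control mean on the log2 CPM scale, the members' median was 0.28 in knockdown library 1, −0.01 in library 2 and 0.48 in library 3, against −0.04, 0.10 and −0.04 in control libraries 1, 2 and 3. Knockdown library 1 was above all 3 controls for 59 of 75 members, library 2 for 17 and library 3 for 69. The same counts over all 16394 genes tested were 6100, 5410 and 6439. Below all 3 controls lay 7, 25 and 4 members, against 6558, 5717 and 6520 of all genes. Over all genes, too, library 2 had the fewest on either side of the controls. Library 3 was the highest of the knockdown libraries for 59 members and library 2 the lowest for 62, an order that was not counted over all genes. Library 2, with the least CALR mRNA, was therefore the one whose subunit mRNAs were nearest to the controls. As per-length levels, the deposited FPKM values summed over members were 8513, 7304 and 9393 in knockdown libraries 1, 2 and 3 and 6997, 7996 and 7336 in the controls. On that summed scale knockdown library 2 lay within the range of the controls, and libraries 1 and 3 lay above it.

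**Figure D1:**
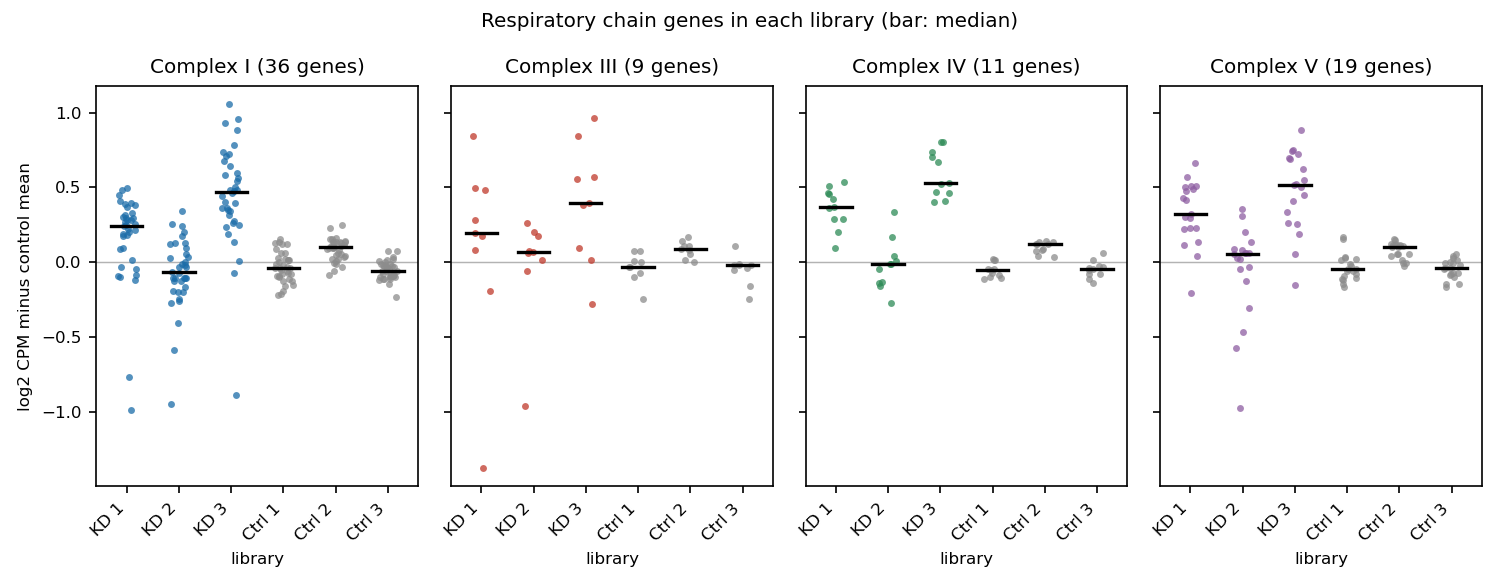
Each point is 1 gene in 1 library, as log2 CPM minus that gene's mean over the 3 control libraries (vertical axis, log2 units), with 1 panel per complex and the knockdown libraries (KD) left of the controls (Ctrl); bars are medians. The medians of knockdown libraries 1 and 3 lie above those of the controls in each panel (0.25 and 0.47 in complex I), while library 2 lies near 0.

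Leaving out 1 library moved the size of the difference. Without knockdown library 2 the members' median log2 fold change was 0.40 and 71 members were positive, and 22 members then passed the adjusted threshold in edgeR, 21 of them higher (28.0% of members, against 7.76% of all genes tested in that fit) and 1, NDUFA5, lower (7.75% of all genes). The 21 had log2 fold changes of 0.44 to 0.90 in that fit and included NDUFA13, NDUFA3 and NDUFS5 of complex I, UQCRC1 and UQCRQ of complex III, COX4I1, COX5B, COX6B1, COX6C, COX7A2, COX7C and COX8A of complex IV, and ATP5A1, ATP5B, ATP5G1, ATP5G2, ATP5G3, ATP5J2, ATP5H and ATP5J2-PTCD1 of complex V. With that library in the fit, none of them passed. Without knockdown library 3 the median was 0.14, 61 members were positive and no member passed, against 0.125% of all genes higher and 0.694% lower. Without knockdown library 1 it was 0.27, and leaving out any 1 control gave medians between 0.22 and 0.32. Scaling by library size alone moved the median of all genes to −0.13. On that scale the members' median was 0.11 and 55 of 75 members were positive, against 37.1% of all genes, so relative to all genes the difference was 0.24, against 0.26 with TMM. The count of members at an unadjusted p under 0.05 was less stable than the median: with library size alone 3 were higher (4.0%, against 4.45% of all genes) and leaving out any 1 control 2 or 3 (2.67% or 4.0%, against 2.87% to 6.35%).

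**Figure D2:**
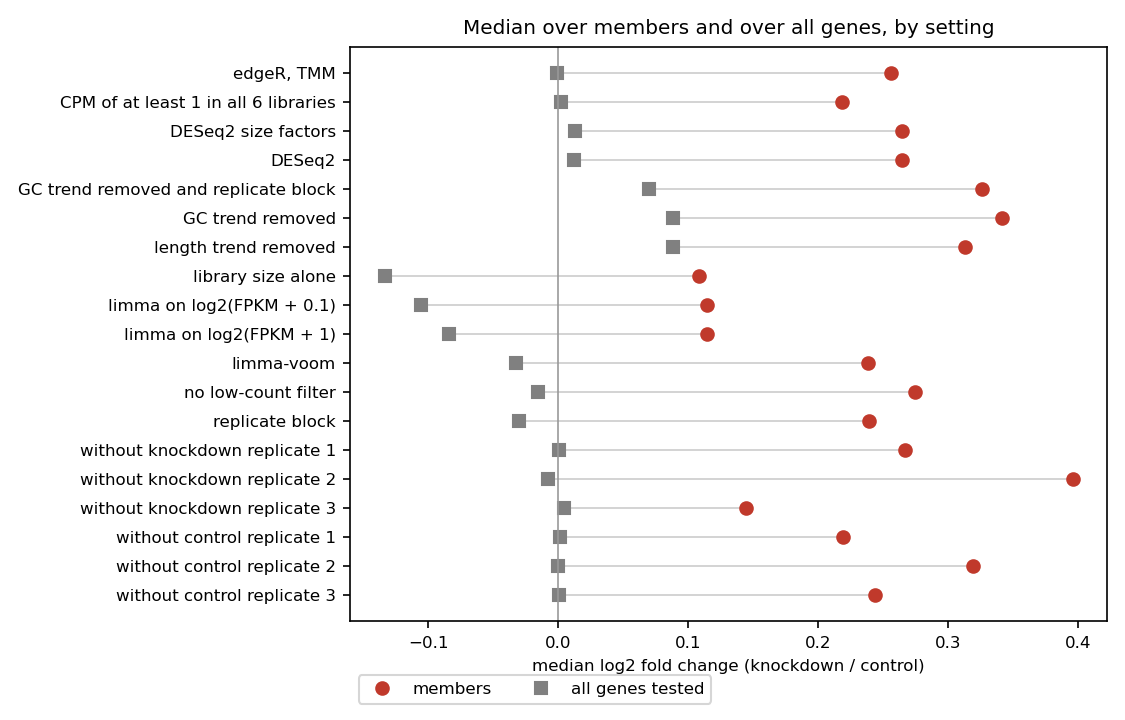
For each processing setting (rows), the median log2 fold change, knockdown over control, is shown for the members (circles) and for all genes tested (squares). The members' median exceeds that of all genes by 0.14 (without knockdown replicate 3) to 0.40 (without knockdown replicate 2).

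The promoters of these genes were searched for motifs of known regulators of the respiratory chain. Nuclear respiratory factor 1 (NRF1), ETS-family factors such as GABP (NRF2), and YY1 are textbook regulators of respiratory chain genes. RefSeq promoters of GRCh38.p14, from 250 bases before to 50 bases after the start site, were matched for 61 subunit genes and searched on both strands for GCGCANGCG (NRF1), CCGGAAG (ETS) and AANATGGCG (YY1), with overlaps between motifs allowed. The following 4 promoters are examples that hold matches, while those of ATP5A1, COX7C, NDUFB8 and UQCRC2, among others, hold none. The 4 are printed 5′ to 3′ along the gene's own strand, and capitals mark the matched letters. UQCRC1 (chr3:48609597-48609896, minus strand) holds 2 NRF1 matches and 1 YY1 match, UQCRFS1 (chr19:29213102-29213401, minus strand) holds 1 of each, COX5B (chr2:97645812-97646111, plus strand) holds 2 ETS matches, and ATP5C1 (chr10:7787927-7788226, plus strand) holds 2 overlapping NRF1 matches, 1 on each strand.
UQCRC1: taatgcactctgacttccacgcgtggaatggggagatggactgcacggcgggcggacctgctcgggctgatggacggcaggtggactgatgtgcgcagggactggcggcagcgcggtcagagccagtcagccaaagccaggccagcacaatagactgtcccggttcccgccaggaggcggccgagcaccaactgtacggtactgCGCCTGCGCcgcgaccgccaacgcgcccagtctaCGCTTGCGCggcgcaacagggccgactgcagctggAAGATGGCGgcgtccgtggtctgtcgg
UQCRFS1: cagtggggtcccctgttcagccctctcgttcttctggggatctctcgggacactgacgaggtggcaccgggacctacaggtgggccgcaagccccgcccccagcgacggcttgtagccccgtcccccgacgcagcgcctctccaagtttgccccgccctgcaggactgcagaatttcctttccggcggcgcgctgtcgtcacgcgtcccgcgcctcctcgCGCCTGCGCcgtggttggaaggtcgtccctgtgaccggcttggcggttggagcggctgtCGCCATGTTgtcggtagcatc
COX5B: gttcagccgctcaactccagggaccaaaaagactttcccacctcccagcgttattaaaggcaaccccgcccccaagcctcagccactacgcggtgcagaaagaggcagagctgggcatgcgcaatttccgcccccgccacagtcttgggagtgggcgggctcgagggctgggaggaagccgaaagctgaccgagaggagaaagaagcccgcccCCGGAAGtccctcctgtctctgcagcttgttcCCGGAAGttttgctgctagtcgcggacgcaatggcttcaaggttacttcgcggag
ATP5C1: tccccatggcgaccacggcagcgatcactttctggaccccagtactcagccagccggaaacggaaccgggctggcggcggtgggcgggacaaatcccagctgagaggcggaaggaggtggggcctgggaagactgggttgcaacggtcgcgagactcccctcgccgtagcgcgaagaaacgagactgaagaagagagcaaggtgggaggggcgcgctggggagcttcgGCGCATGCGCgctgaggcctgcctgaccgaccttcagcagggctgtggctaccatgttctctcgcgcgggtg

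NRF1 letters were present in 19 of 61 subunit promoters (31.15%), against 7.518% of all 35116 promoters in the table and 14.49% of the promoters of 11499 tested genes. ETS letters were present in 17 (27.87%), against 10.26% and 18.78%, and YY1 letters in 15 (24.59%), against 3.192% and 6.54%. Among the 59 promoters of tested subunit genes the shares were 30.51% for NRF1, 28.81% for ETS and 25.42% for YY1. Some subunit genes described below, among them ATP5B and ATP5G3, had no matched promoter. Complex III had NRF1 letters in 4 of 7 promoters and complex IV in 2 of 12, while complex I had YY1 letters in 10 of 31. The 2 of complex IV were COX6A1 and the testis form COX8C, which was not tested. The 12 also include the untested COX6B2. The median log2 fold change was 0.25 with (n = 18) and 0.26 without NRF1 letters, 0.36 with and 0.22 without ETS letters, and 0.26 with and 0.25 without YY1 letters. A match describes the letters of the window and does not show a bound site.

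Complex I, the largest of the complexes, has an arm in the matrix that binds NADH (N module) and hands electrons to quinone (Q module), and an arm in the membrane that pumps protons. Fold changes were above 0 on the log2 scale for 33 of 36 members, with a median of 0.21, and 3 members (8.33%) were higher at an unadjusted p under 0.05, a share close to the 8.17% of all genes. The 10 N module genes had a median of 0.14 with 8 positive, the 5 Q module genes 0.38 with 4 positive, and the 20 membrane arm genes 0.23 with all 20 positive. By library, the complex I median against the control mean was 0.25, −0.07 and 0.47 in knockdown libraries 1, 2 and 3.

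NDUFS7 and NDUFS8 carry the iron-sulphur clusters that lead to the quinone site. NDUFS8 had 127, 102 and 190 CPM in knockdown and 104, 111 and 94.7 CPM in control libraries. NDUFS7 had 55.7, 43.7 and 73.8 CPM in knockdown and 43.2, 48.4 and 41.6 CPM in control libraries. For both, knockdown library 2 lay within the controls and library 3 was far above them, and the log2 fold changes of 0.44 ± 0.23 and 0.38 ± 0.21 came to 0.17 and 0.18 without library 3. For NDUFS7, 49.1% of the exon bases overlap exons on the other strand.

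NDUFV1, which holds the NADH site, had 136, 72.7 and 162 CPM in knockdown and 116, 109 and 103 CPM in control libraries. Its 3 knockdown values lay on both sides of the controls, which lay close together. The log2 fold change of 0.17 ± 0.27 came to 0.10 without knockdown library 1, 0.45 without library 2 and −0.05 without library 3, and it was −0.03 on the FPKM scale. NDUFS1, the largest subunit and the carrier of several clusters, had 116, 116 and 97.8 CPM in knockdown and 103, 102 and 103 CPM in control libraries. Here knockdown library 3 was the low one, the reverse of NDUFV1. The log2 fold change of 0.10 ± 0.15 was −0.03 with library size alone, and without knockdown library 1, 2 or 3 it was 0.06, 0.06 and 0.19.

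In the membrane arm, NDUFB8 (chromosome 10, 100523740 to 100530000, GRCh38) had 29.9, 27.7 and 30.5 CPM in knockdown, against 20.1, 22.7 and 23.0 CPM in control libraries. Every knockdown library lay above every control, with little spread in either group, with a log2 fold change of 0.42 ± 0.17 (SE, n = 3 each; adjusted p = 0.289 in edgeR). For this gene, 33.8% of the exon bases lie in another annotated transcript on the same strand. NDUFB3, another accessory subunit, was named after its values were seen because its groups also stood apart, at 106, 110 and 116 CPM in knockdown against 94.5, 97.1 and 88.8 CPM in control libraries. Its log2 fold change was 0.24 ± 0.14, adjusted p = 0.427. NDUFA3, likewise named after its values were seen, had the highest fold change of the complex, 0.57 ± 0.25, from 42.2, 34.4 and 66.9 CPM in knockdown and 35.2, 32.3 and 29.1 CPM in control libraries. Its groups overlapped, since knockdown library 2 was below control 1, and without library 3 the log2 fold change was 0.27.

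The remaining complex I genes given here had uneven values and were also named after these were seen. NDUFA5, a Q module subunit, had 30.2, 58.6 and 32.4 CPM in knockdown and 65.2, 56.5 and 58.7 CPM in control libraries. Knockdown libraries 1 and 3, the ones in which most members were high, had about the same low level, while library 2 was at the control level. Its log2 fold change of −0.57 ± 0.26 had an adjusted p of 0.332. Without knockdown library 2 it was −0.94 with an adjusted p of 0.0155, and with the trend of counts on GC content removed it was −0.21; at 35.04% its transcript has the lowest GC content of the tested members. NDUFC2 had 36.5, 74.2 and 85.5 CPM in knockdown and 53.4, 68.4 and 65.5 CPM in control libraries. Its level was lowest in knockdown library 1 and highest in library 3, and the log2 fold change of 0.07 ± 0.29 turned negative under several settings, ranging from −0.16 without knockdown library 3 to 0.36 without library 1. A readthrough transcript to its neighbour KCTD14 shares exons with it. The row that the count table calls NDUFA7 (ENSG00000167774) had 24.2, 13.6 and 35.7 CPM in knockdown and 28.8, 28.3 and 22.3 CPM in control libraries. GENCODE release 29 gives that identifier no longer to NDUFA7 but to a readthrough transcript, and CD320 and NDUFA7 exons cover 91.4% of its exon bases, so its values cannot be assigned to NDUFA7 alone. Knockdown library 2 was the lowest and library 3 the highest of the 6, and the log2 fold change of −0.11 ± 0.32 was −0.47 without library 3 and 0.18 without library 2. The identifier that now carries the name, ENSG00000267855, had no more than 0.0529 CPM in any library and was not tested.

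Complex III contains a pair of large core proteins, UQCRC1 and UQCRC2, the Rieske iron-sulphur protein UQCRFS1 that carries the electrons, and small accessory subunits. All 8 of its subunit genes had a log2 fold change above 0, with a median of 0.24, and in 4 of them the knockdown libraries lay above all controls (4 of 8, against 11.3% of all genes). UQCRC1 (chromosome 3, 48599002 to 48610976) had 495, 312 and 540 CPM in knockdown, against 291, 292 and 248 CPM in control libraries. Knockdown libraries 1 and 3 were far above the controls and library 2 just above them. The log2 fold change was 0.70 ± 0.22, the largest of the members, with an edgeR adjusted p of 0.221 (0.0113 unadjusted). It passed the adjusted threshold with no low-count filter (adjusted p = 0.0271) and without knockdown library 2 (adjusted p = 0.015), and in no other setting tried. With no low-count filter it was the only member called (1.33% of members). The share of all genes called in that fit is not given here, so this count is not read as a result about the members. Without knockdown library 2 it was among the 28.0% of members called higher, against 7.76% of all genes. The UQCRC1 promoter, printed above, carries both NRF1 and YY1 letters. So do those of UQCRFS1, ATP5J, COX6A1, NDUFA9, NDUFS6, NDUFS7 and UQCR10, whose log2 fold changes ran from 0.17 (ATP5J) to 0.38 (UQCRFS1).

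UQCRFS1 (chromosome 19, 29205321 to 29213541) had 184, 157 and 173 CPM in knockdown, against 123, 142 and 130 CPM in control libraries. All 3 knockdown libraries were above the controls, library 2 included, with a log2 fold change of 0.38 ± 0.15 (adjusted p = 0.285). UQCRC2, in contrast, had 135, 117 and 112 CPM in knockdown and 112, 111 and 110 CPM in control libraries. Its groups did not overlap either, but knockdown library 3 was only just above the highest control. The log2 fold change of 0.13 ± 0.15 was −0.00 with library size alone or on the FPKM scale, and without knockdown library 1 or 3 it was 0.05 and 0.20. UQCRQ, a small subunit named after its values were seen, had 223, 160 and 285 CPM in knockdown and 155, 164 and 156 CPM in control libraries. Knockdown library 2 lay among the controls, and the log2 fold change of 0.49 ± 0.21 was 0.29 without library 3. UQCRB, also named after its values were seen, had 352, 384 and 356 CPM in knockdown and 334, 336 and 329 CPM in control libraries. Here library 2 was the highest, and the log2 fold change of 0.13 ± 0.14 was −0.00 with library size alone.

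UQCRHL is an intronless copy of UQCRH that the name rule also takes in. It had 10, 16 and 25 counts in knockdown and 33, 34 and 30 counts in control libraries, with a log2 fold change of −0.87 ± 0.41 and an adjusted p of 0.348. The groups did not overlap, at counts so low that the sampling of reads is a large part of each value, and reads shared with UQCRH cannot be told apart. UQCRH itself had 188, 175 and 217 CPM in knockdown and 159, 179 and 162 CPM in control libraries.

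Complex IV had the narrowest range of fold changes and the highest median. All 11 tested genes were positive, from 0.19 to 0.44 on the log2 scale, with a median of 0.37. All 11 were above all 3 controls in knockdown libraries 1 and 3, but only 2 were in library 2. Over all 16394 genes tested, 6100, 6439 and 5410 were above all 3 controls in libraries 1, 3 and 2. Library 2 was the lowest of the knockdown libraries for every one of the 11, again without a count over all genes. The 2 above all controls there were COX6C and COX7C, small single-helix subunits. They were also the complex IV genes at an unadjusted p under 0.05 (18.2%, against 8.17% of all genes). COX6C had 289, 265 and 278 CPM in knockdown, against 197, 221 and 212 CPM in control libraries. Its values varied little within either group, with a log2 fold change of 0.40 ± 0.14 (adjusted p = 0.255). COX7C (chromosome 5, 86617904 to 86620962) had 454, 373 and 458 CPM in knockdown, against 334, 339 and 321 CPM in control libraries. Its log2 fold change was 0.37 ± 0.15, adjusted p = 0.300.

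COX4I1, the regulatory subunit expressed in most tissues, had 413, 287 and 535 CPM in knockdown and 326, 340 and 297 CPM in control libraries. Knockdown library 2 was below all 3 controls and the others were above them. For COX4I1 the log2 fold change of 0.36 ± 0.22 was 0.57 without library 2 (adjusted p = 0.0417) and 0.14 without library 3. COX6B1, which faces cytochrome c, had 264, 211 and 325 CPM in knockdown and 195, 223 and 198 CPM in control libraries, and its log2 fold change of 0.38 ± 0.19 was 0.23 without library 3. COX7A2, the form of COX7A found in most tissues, had 296, 205 and 332 CPM in knockdown and 189, 224 and 200 CPM in control libraries, with a log2 fold change of 0.44 ± 0.20. In both genes library 2 was within the controls. COX6A1 had the highest level per length of any member, with a mean of 772 FPKM in knockdown and 703 FPKM in control libraries. Its CPM values were 501, 396 and 592 in knockdown and 382, 453 and 398 in control libraries, and the log2 fold change of 0.27 ± 0.19 was 0.42 without library 2 and 0.14 without library 3.

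COX7A2L takes part in joining complexes III and IV into supercomplexes. It had 132, 112 and 178 CPM in knockdown and 120, 131 and 121 CPM in control libraries. This gave 0.19 ± 0.19 on the log2 scale, the smallest of the complex, and 0.33 without library 2 and −0.00 without library 3. The testis forms COX6B2 and COX8C had 0 to 3 counts in any library and were not tested. The tissue-restricted forms COX4I2, COX6A2, COX7A1 and COX7B2 were not analysed here. NDUFA4, once listed with complex I and now counted as a complex IV subunit, lies outside the rule and had a log2 fold change of 0.11 ± 0.18. Its paralogue C15orf48 had 455, 233 and 523 CPM in knockdown, against 124, 101 and 92.5 CPM in control libraries, again with library 2 nearest to the controls. Its log2 fold change of 1.93 ± 0.29 had an adjusted p of 0.145, and it was named after its values were seen.

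**Figure D3:**
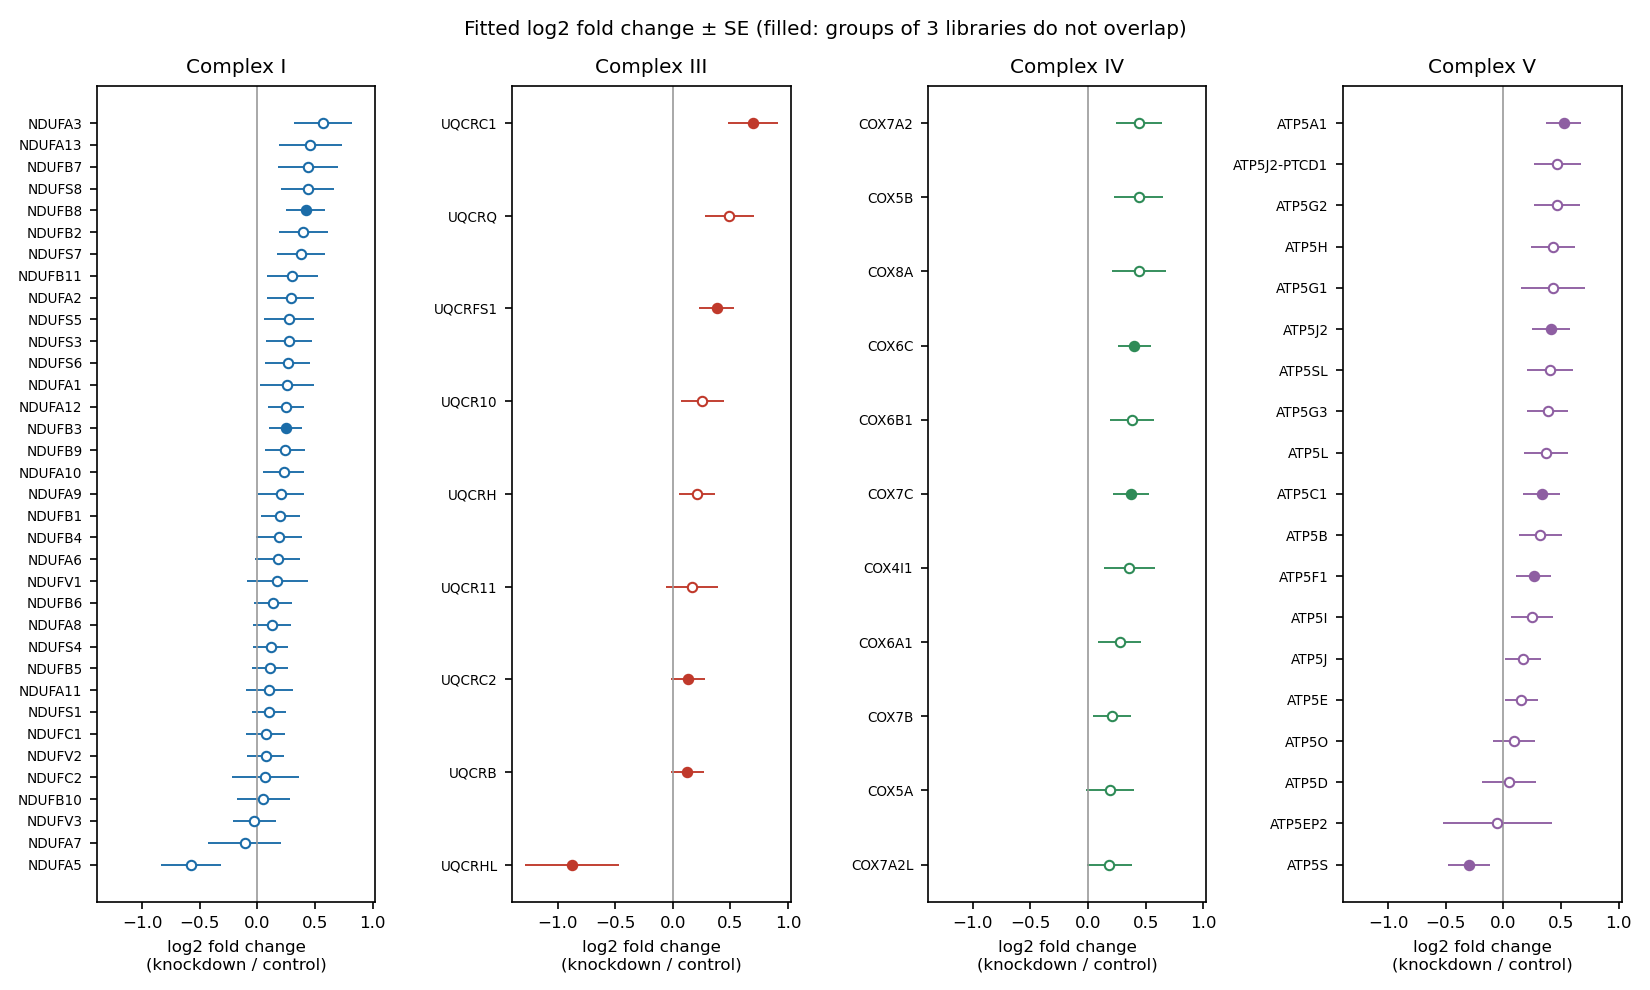
Log2 fold change, knockdown over control (horizontal axis), with its SE for 74 of the 75 tested members, in 1 panel per complex and ordered by size; filled points mark the 14 of these genes whose groups of 3 libraries do not overlap. All complex IV points lie between 0.19 and 0.44, and NDUFA5 and UQCRHL lie furthest below 0.

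Complex V consists of the catalytic F1 head, a ring of c subunits that turns in the membrane, a peripheral stalk that holds the head still, and small membrane subunits. Of its 19 tested members, 17 were positive on the log2 scale, the median being 0.33, and 5 were higher at an unadjusted p under 0.05 (26.3%, against 8.17% of all genes). The 15 that encode subunits were all positive, and 4 of them were among the 5, the other one being the readthrough gene ATP5J2-PTCD1. ATP5A1 (now ATP5F1A, chromosome 18, 46080248 to 46104334), the alpha subunit of F1, had 641, 517 and 581 CPM in knockdown, against 410, 407 and 394 CPM in control libraries. Every knockdown library was well above the controls, library 2 included. The log2 fold change was 0.52 ± 0.15, with an edgeR adjusted p of 0.209 (0.00777 unadjusted), the lowest among members. ATP5B (now ATP5F1B), the catalytic beta subunit, had 779, 559 and 829 CPM in knockdown and 592, 596 and 547 CPM in control libraries. Unlike its partner, it was within the control range in library 2, with a log2 fold change of 0.32 ± 0.18 (adjusted p = 0.420). The central stalk gene ATP5C1 (now ATP5F1C), named after its values were seen, had 312, 252 and 263 CPM in knockdown and 202, 235 and 221 CPM in control libraries. Its groups stood apart, with a log2 fold change of 0.33 ± 0.16 and an adjusted p of 0.353. ATP5D and ATP5E, the remaining F1 genes, had log2 fold changes of 0.05 ± 0.23 and 0.16 ± 0.14, and ATP5D was at −0.11 with library size alone and −0.12 on the FPKM scale.

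The c ring is encoded by ATP5G1, ATP5G2 and ATP5G3 (now ATP5MC1 to ATP5MC3), whose mature proteins are the same and whose import sequences differ. ATP5G1 had 99.4, 57.1 and 130 CPM in knockdown and 79.4, 69.5 and 63.9 CPM in control libraries. ATP5G2 had 108, 81.0 and 128 CPM in knockdown and 84.9, 76.0 and 68.9 CPM in control libraries. ATP5G3 had 325, 254 and 376 CPM in knockdown and 230, 266 and 237 CPM in control libraries. In all 3 genes knockdown libraries 1 and 3 were above the controls and library 2 was not, and it was the lowest of all 6 for ATP5G1. Their log2 fold changes were alike, at 0.43 ± 0.28, 0.46 ± 0.20 and 0.38 ± 0.18. That of ATP5G1 was 0.70 without library 2 (adjusted p = 0.0308) and 0.16 without library 3. Summed over the 3 genes, the c ring had 222, 160 and 263 FPKM in knockdown and 185, 180 and 166 FPKM in control libraries.

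Of the small membrane subunits, ATP5J2 (now ATP5MF) had 128, 99.0 and 132 CPM in knockdown, against 89.2, 93.4 and 87.6 CPM in control libraries. The groups did not overlap, with a log2 fold change of 0.41 ± 0.16 (adjusted p = 0.289). The readthrough gene ATP5J2-PTCD1, also a member by name, shares 88.3% of its exon bases with ATP5J2 and PTCD1 on the same strand and had a log2 fold change of 0.47 ± 0.20, so it is not an independent observation. The 4 peripheral stalk genes had a median of 0.21, with ATP5H (now ATP5PD) highest at 0.43 and ATP5O (now ATP5PO) lowest at 0.09, or −0.05 with library size alone. ATP5F1 (now ATP5PB) of the stalk had groups that stood apart, at 507, 537 and 518 CPM in knockdown and 387, 467 and 449 CPM in control libraries.

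Members that carry the ATP5 name without being subunits did not share 1 direction. ATP5S (now DMAC2L), known as coupling factor B, had 23.6, 18.3 and 24.5 CPM in knockdown and 26.8, 27.1 and 27.8 CPM in control libraries. It was lower in every knockdown library than in any control, with a log2 fold change of −0.30 ± 0.18 and an adjusted p of 0.443, and it was −0.18 without knockdown library 2 and −0.02 with the GC trend removed. ATP5SL (now DMAC2), a complex I assembly protein, was at 0.40 ± 0.20. The intronless copy ATP5EP2 was at −0.05 ± 0.47, and ATP5L2 had at most 1 count in a library. The ATP synthase inhibitor ATPIF1, which lies outside the name rule, had 75.8, 60.7 and 84.1 CPM in knockdown and 88.1, 83.3 and 76.2 CPM in control libraries. It had a log2 fold change of −0.17 ± 0.17, which was −0.04 without knockdown library 2 and −0.26 without library 3.

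The other genes of the pathway were read from lists of partners chosen with earlier results of these data known. Complex II, the succinate dehydrogenase that also feeds the quinone pool and is nuclear throughout, had a median log2 fold change of 0.29 over 4 genes, of which 1 was higher at an unadjusted p under 0.05 (against 8.17% of all genes). That gene was SDHA, the flavoprotein, with 245, 203 and 238 CPM in knockdown and 166, 161 and 146 CPM in control libraries. Its groups stood well apart, library 2 included, with a log2 fold change of 0.54 ± 0.15 and an adjusted p of 0.205, which came to 0.0223 without library 2. Among 3 genes for carriers and subunits outside the name rule, 1 was higher by the same measure, namely CYC1 (cytochrome c1 of complex III) at 0.49 ± 0.20, while NDUFAB1 was at 0.26. Cytochrome c itself, CYCS, named after its values were seen, had 151, 260 and 206 CPM in knockdown and 279, 287 and 270 CPM in control libraries. Every knockdown library lay below every control, least so library 2, with a log2 fold change of −0.44 ± 0.21 (adjusted p = 0.345 in edgeR).

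The 13 mitochondrially encoded subunit mRNAs were divided in direction. Their median log2 fold change was −0.04 with 6 positive, and 0 of them passed an unadjusted p under 0.05 in either direction in edgeR. Their summed level was 118459, 112008 and 98411 FPKM in knockdown and 139717, 101301 and 109593 FPKM in control libraries, so the groups overlapped. In 1 of the 13, MT-ND3 of complex I (7.69%, against 11.3% of all genes), all knockdown libraries lay above all controls, at 2855, 2641 and 4447 CPM in knockdown and 2622, 2398 and 2384 CPM in control libraries. Its log2 fold change of 0.43 ± 0.22 ranged from 0.17 to 0.57 with 1 library left out, and it was named after its values were seen. Transcripts of mitochondrial DNA have polyA tails of their own, and how completely a polyA-enriched library holds them was not tested.

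Assembly factors were mixed. Of 17 complex I assembly genes, 10 were positive with a median of 0.14, and 1 was higher at an unadjusted p under 0.05 (5.88%, below the 8.17% of all genes). This was ECSIT, at 40.2, 40.3 and 57.3 CPM in knockdown and 30.5, 36.6 and 30.8 CPM in control libraries. ECSIT had a log2 fold change of 0.49 ± 0.20, which was 0.32 without knockdown library 3. Of 6 complex III assembly genes, 3 were positive with a median of 0.04, and 1 was higher (16.7%), UQCC2, needed for cytochrome b synthesis, at 0.68 ± 0.21 (adjusted p = 0.220, and 0.0175 without knockdown library 2). Of 24 complex IV assembly genes, 15 were positive with a median of 0.10, and 1 was higher (4.17%), the copper chaperone COX17, at 63.8, 52.2 and 36.2 CPM in knockdown and 32.5, 31.0 and 29.3 CPM in control libraries. COX17 was highest in knockdown library 1 and lowest of the group in library 3, an order unlike that of the complex IV subunits, with a log2 fold change of 0.71 ± 0.22 and an adjusted p of 0.219, or 0.0482 with no low-count filter. Of 4 complex V assembly genes the median was 0.06, and 1 was lower (against 7.36% of all genes), TMEM70, which helps to build the c ring, at −0.41 ± 0.16.

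The 16 nuclear regulators and genes of mitochondrial DNA expression had a median log2 fold change of −0.11 with 6 positive. At an unadjusted p under 0.05, 1 was higher and 1 was lower, 6.25% each, against 8.17% and 7.36% of all genes. TFAM, which packages mitochondrial DNA and starts its transcription, had 40.9, 66.4 and 32.1 CPM in knockdown, against 91.6, 77.8 and 88.2 CPM in control libraries. It was below every control in every knockdown library, and again least so in library 2. Its log2 fold change was −0.89 ± 0.26, adjusted p = 0.209, and it was past the threshold with no low-count filter (adjusted p = 0.00485) and without knockdown library 2 (adjusted p = 0.015). POLG, the mitochondrial DNA polymerase, had 81.3, 69.9 and 94.7 CPM in knockdown and 54.6, 60.1 and 61.0 CPM in control libraries, with a log2 fold change of 0.49 ± 0.17 and an adjusted p of 0.248, which came to 0.0302 without knockdown library 2. Of the genes for the factors whose letters were searched above, NRF1 had a log2 fold change of 0.31 ± 0.18, GABPA −0.56 ± 0.33 and YY1 −0.10 ± 0.19.

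**Figure D4:**
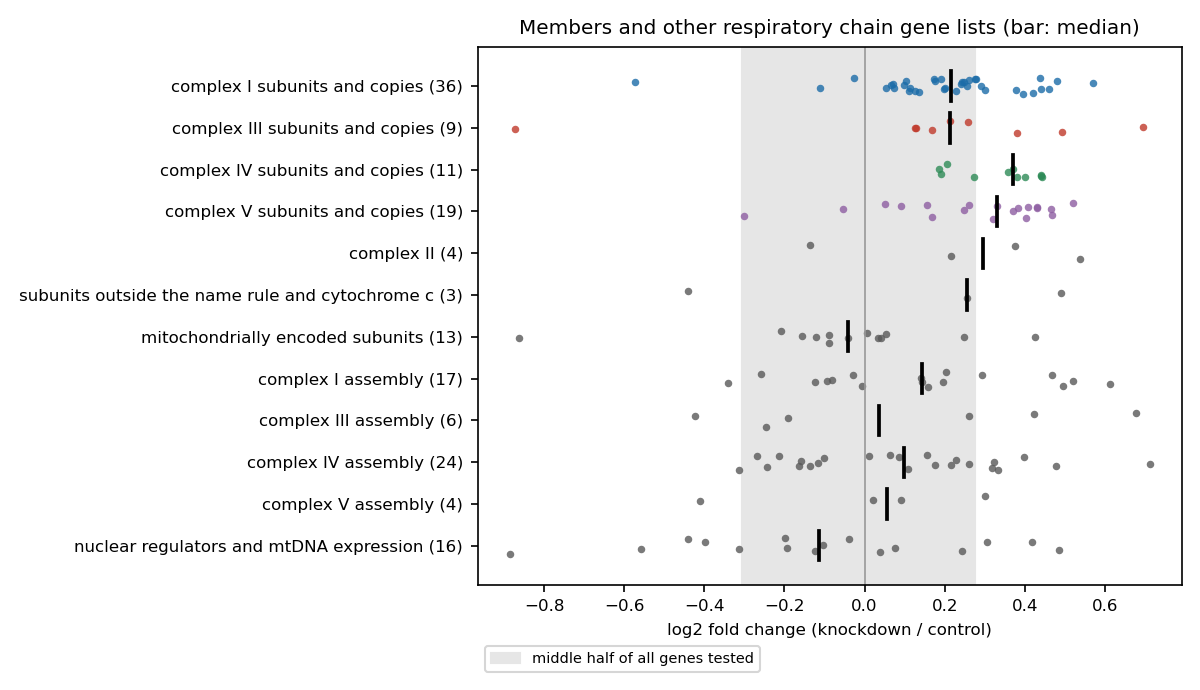
Log2 fold change, knockdown over control (horizontal axis), of each tested gene in the 4 complexes and in the lists of partner genes (rows, with the number of genes); bars are medians and the grey band holds the middle 50% of all genes tested. The medians of complexes I, III, IV and V are 0.21, 0.21, 0.37 and 0.33, against −0.04 for mitochondrially encoded subunits and −0.11 for regulators.

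The fold changes moved with the GC content of the transcripts in these libraries. Across all genes tested the Spearman correlation of log2 fold change with GC content was 0.31, and across the 75 members it was 0.30; genes of the same libraries share depth and library chemistry, so these are descriptions. Within the members, the correlation of each library's difference from the control mean with GC content was 0.18 in knockdown library 1, −0.27 in library 2 and 0.53 in library 3. The members' median GC content of 47.9% was close to the 48.04% of all genes. Members at or above their median GC had a median log2 fold change of 0.31, against 0.14 for all genes in that range, and members below it had 0.20, against −0.14 for all genes in that range. With the GC trend removed from each library, the members' median was 0.34 with 70 of 75 positive, against a median of 0.09 and 59.2% positive for the genes as a whole. Then 31 members were higher at an unadjusted p under 0.05, against 14.3% of all genes, and none passed the adjusted threshold, against 0.0614% of all genes higher and 0.0123% lower. Members also have shorter exon models, with a median of 2475 bases against 4398 over all genes. With the length trend removed their median log2 fold change was 0.31, against 0.09 over all genes. Relative to all genes the difference was then 0.22, against 0.26 in the reported fit. The part of RNA quality and library preparation in these trends was not tested.

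**Figure D5:**
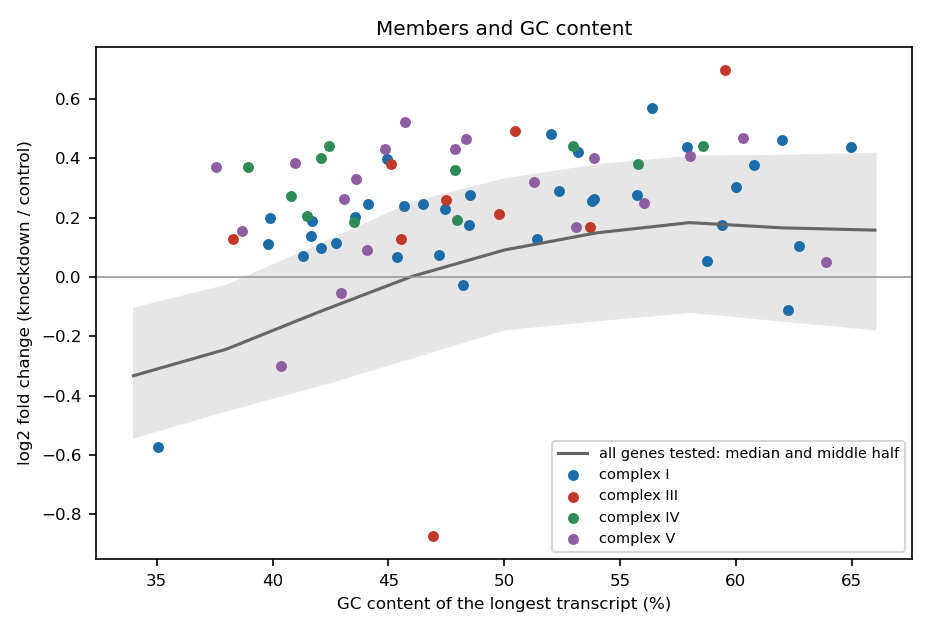
Log2 fold change, knockdown over control (vertical axis), against the GC content of the longest transcript (horizontal axis, percent) for the 75 tested members, coloured by complex; the line and grey band give the median and the middle 50% of all genes tested in bins of GC content. Members lie mostly above the line across the range, with medians of 0.31 and 0.20 at or above and below the members' median GC content.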

How the data were processed

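RNA sequencing of 6 libraries, 3 knockdown and 3 control, was read from 2 deposited tables. The deposited counts are whole numbers of reads per gene, and the deposited FPKM values were computed by the authors. FastQC 0.9.5, TopHat2 and GRCh38 were used, per the submitters' processing notes; which program counted the reads, with which annotation and strand setting, is not given in the sources used here, so reads of overlapping genes may be shared.

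Library totals of 34639090 to 42425310 counts were scaled with TMM, and genes kept by filterByExpr (16394) were tested in edgeR 4.0.16 (R 4.3.3) by its quasi-likelihood F-test, knockdown against control, without covariates, with Benjamini-Hochberg adjustment over all genes and a threshold of 0.05. Standard errors (SE) were taken from the size of the log2 fold change and its F statistic. CPM uses the TMM-scaled totals, and log2 CPM a prior count of 2. Coordinates, overlap, GC content and exon length came from GENCODE release 29 on GRCh38, counted from 1. Alternatives used limma 3.58.1, DESeq2 1.42.0, other scalings and filters, and each library left out.

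Named genes were fixed isoform sets and core subunits, plus, in each complex, up to 3 genes per direction with the largest fold change. The latter were taken among those past the adjusted threshold with groups apart, or at an unadjusted p under 0.05 where fewer passed. Up to 2 per direction in each partner list were named by the same rule. Apart from the cell type markers, other genes given by name fall outside these rules. Only some of them are marked in the text as named after their values were seen. Members, lists and rules were chosen with earlier results of these data known. The single values of 1 member are not given here.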

Additional observations from a re-analysis of the deposited data

How the results depend on the processing

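Beside the values given with the results, 18 alternatives were tried. The median log2 fold change of members stayed positive in all of them, from 0.11 (library size alone) to 0.40 (without knockdown replicate 2), as did those of complex I (0.07 to 0.35), III (0.07 to 0.30), IV (0.23 to 0.47) and V (0.19 to 0.48). Genes called numbered 0, except 530 in DESeq2, 12 with the GC trend removed, 40 with the GC trend removed and a replicate block, 988 with no low-count filter, and, leaving out 1 library, 0 to 2604 (2604 without knockdown replicate 2, 138 without replicate 3). Members called numbered 0, except 1 with no low-count filter (1.33% of members, in a fit that called 988 genes) and 0 to 22 leaving out 1 library. The 22 came without knockdown replicate 2, where 28.0% of members were higher, against 7.76% of all genes. Members higher at an unadjusted p under 0.05 were 13 in the reported fit (17.3%, against 8.17% of all genes). They were 8 where every library needed a CPM of 1 (11%, against 8.42%), 8 in limma-voom (10.7%, against 7.39%), 31 with the GC trend removed (41.3%, against 14.3%), 23 with that and a replicate block (30.7%, against 12.8%) and 24 with the length trend removed (32%, against 13.6%). They were 3 with library size alone (4.0%, against 4.45%), 3 in limma on log2(FPKM + 1) and on log2(FPKM + 0.1) (4.11%, against 5.5%) and 2 with a replicate block alone (2.67%, against 5.98%), shares below those of all genes. Leaving out 1 library gave 2 to 44, with 44 without knockdown replicate 2 (58.7%, against 17.9%) and at most 6 otherwise (8.0% without knockdown replicate 3, against 7.83%). Lower members, 0 in the reported fit (against 7.36% of all genes), were 2 with library size alone (against 11%), 1 in either FPKM fit (10.5% and 10.7%), 2 in limma-voom (8.95%), 1 with no low-count filter (6.18%), 1 with a replicate block (7.5%) and 0 to 1 leaving out 1 library. CALR passed the threshold with the GC trend removed and a replicate block (−2.80, adjusted p = 0.0461) and with no low-count filter (−2.19, adjusted p = 1.45e-19). In the reported fit its log2 fold change was nearly the same, −2.22, with an edgeR adjusted p of 0.209. The adjusted p-values with no low-count filter, also those of UQCRC1, TFAM and COX17, thus depend on the low-count rows that are kept.

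The sign of the fold change turned negative in 14 of 75 members with library size alone, in 13 of 73 in either FPKM fit and in 8 without knockdown replicate 3. Among the named genes, with library size alone NDUFS1 was −0.0286, UQCRC2 −0.0036, NDUFC2 −0.0703 and UQCRB −0.0020. On log2(FPKM + 0.1) and log2(FPKM + 1), NDUFV1 was −0.028 and −0.0268, NDUFS1 −0.0307 and −0.0266, UQCRC2 −0.00034 and −0.00017, and NDUFC2 −0.14 and −0.13. NDUFC2 was −0.0115 in limma-voom and −0.0137 with the replicate block. Leaving out 1 library, NDUFC2 ranged from −0.16 to 0.36, NDUFV1 from −0.0506 to 0.45, COX7A2L from −0.00056 to 0.33 and NDUFA7 from −0.47 to 0.18. The labels give no pairing of same-numbered libraries of the groups. Their correlations of deviations were 0.20, −0.12 and −0.22 for numbers 1, 2 and 3. Deviations are centred within each group, so these values can neither show nor exclude pairing, and the replicate block is a setting only. The cause of these shifts was not tested.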
